A study of Homo sapiens with 2 samples.

Results

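The genes examined here encode proteins of the centriole and of the centrosome built around it. They were taken by name from the array: every gene symbol made of CEP and digits with at most 1 further capital letter, together with PLK4, STIL, SASS6, CENPJ, PCNT, CDK5RAP2, NEDD1, HAUS1, HAUS8 and CCP110. The rule uses names and no measured value, though it was written with earlier results of these data known. It gave 43 genes, read by 62 of the 58201 probes and making up 43 of the 43317 gene names on the array.

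Ca9-22 cells, an established line of human oral squamous cell carcinoma (OSCC), had been infected with lentivirus carrying DLEU1 or with the control vector. DLEU1 is a long noncoding RNA, its full-length cDNA came from another OSCC line (KON), and the control was the empty vector. Both cultures went through 2 weeks of blasticidin selection, and the total RNA of each, with Cy3 as the dye, went on 1 one-colour Agilent expression array. With 1 array per vector there was no replicate, so every value below is a description of these arrays with no test, and the effect of the vector cannot be told apart from that of the single infection and culture it came from.

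A centriole is a short cylinder of microtubules. Each cycling cell copies its centriole pair once, starting when the kinase PLK4 and its partner STIL assemble a cartwheel of SASS6 on the wall of the old centriole. Mature centrioles gather the pericentriolar material, which anchors the gamma-tubulin ring complexes that nucleate microtubules, carry appendages through which they dock at the membrane to form a cilium, and are held together by a linker until mitosis.

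A level is the log2 of the background-subtracted signal minus the 75th percentile of its array, and a difference is the level with the DLEU1 vector minus that with the control vector. A gene is represented by its brightest probe that was well above background on both arrays, and a change was counted from 2-fold, which is 1 on the log2 scale. The arrays had a like share of probes well above background, 47.6% (control vector) and 48.1% (DLEU1 vector). Probes printed in 10 spots gave the technical spread: the SD of a spot's log2 difference was 0.0618 for 259 probes at levels above 1, 0.137 for 18 probes between -1 and 1, and 0.308 for 5 probes below -1. Where 1 gene had several probes, their differences had an SD of 0.47 (4674 genes). Neither figure holds the variation between cultures. The brightest DLEU1 probe was 6.67-fold higher with its vector (levels of 3.17 and 5.91), and the smallest difference of its 3 probes was 0.54. A strip of the DLEU1 vector array was damaged, and 0 probes of these 43 genes lay in it, while that of CDH1 did. All 6 epithelial markers (KRT5, KRT14, TP63, CDH1, EPCAM and DSP) were well above background on both arrays, with a summed linear level of 330 and 1002 in units of the array percentile. Of these 5 were higher with the DLEU1 vector, KRT14 most (2.85), and EPCAM was lower (-0.78). Of 6 fibroblast markers 2 were above background with the empty vector and 3 with DLEU1 (sums of 1.55 and 22.4), with COL1A2, COL3A1 and DCN on neither array. COL1A1, at levels of 0.47 and 4.47, made up most of these sums, and PDGFRB differed by -0.33. Of 5 immune markers on the array 4 were above background with each vector (sums of 8.21 and 9.44), without CD3E. The brightest of them was CD79A, at log2 levels of 2.88 and 3.1. CD14 differed by -1.6, and the other 3 immune markers above background were higher. Of 4 endothelial markers 2 were above background with each vector (sums of 0.46 and 2.76), without PECAM1 and KDR. VWF differed by 3.7 on its brightest probe and by -0.07 on another, and CDH5 by -0.59. The part of these shifts in the results below was not tested.

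All 43 genes were well above background on both arrays, and most of them were lower with the DLEU1 vector. The difference was below 0 for 38 genes and above 0 for 5, of which 6 changed sign with the processing, and the values ran from -3.44 to 0.67 around a median of -0.49. Over the 20246 gene names measured on both arrays the median was -0.07, with 10968 below 0 and 9278 above 0. At 2-fold, 12 of the 43 genes (27.9%) were lower, where 9.78% of all gene names were, and 0 were higher, where 9.18% of all gene names were. The 12 genes were PLK4, CEP55, STIL, HAUS8, SASS6, CENPJ, CEP78, CEP152, HAUS1, CEP128, CEP135 and CEP72, in order of size, and each lay in the lowest 9.29% of all gene names. The 43 genes had median levels of 1.59 (control vector) and 0.8 (DLEU1 vector). All gene names had 0.88 and 0.85 in the same order. In a total RNA sample, fewer cells that transcribe a gene and less RNA per cell cannot be told apart.

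**Figure D1:**
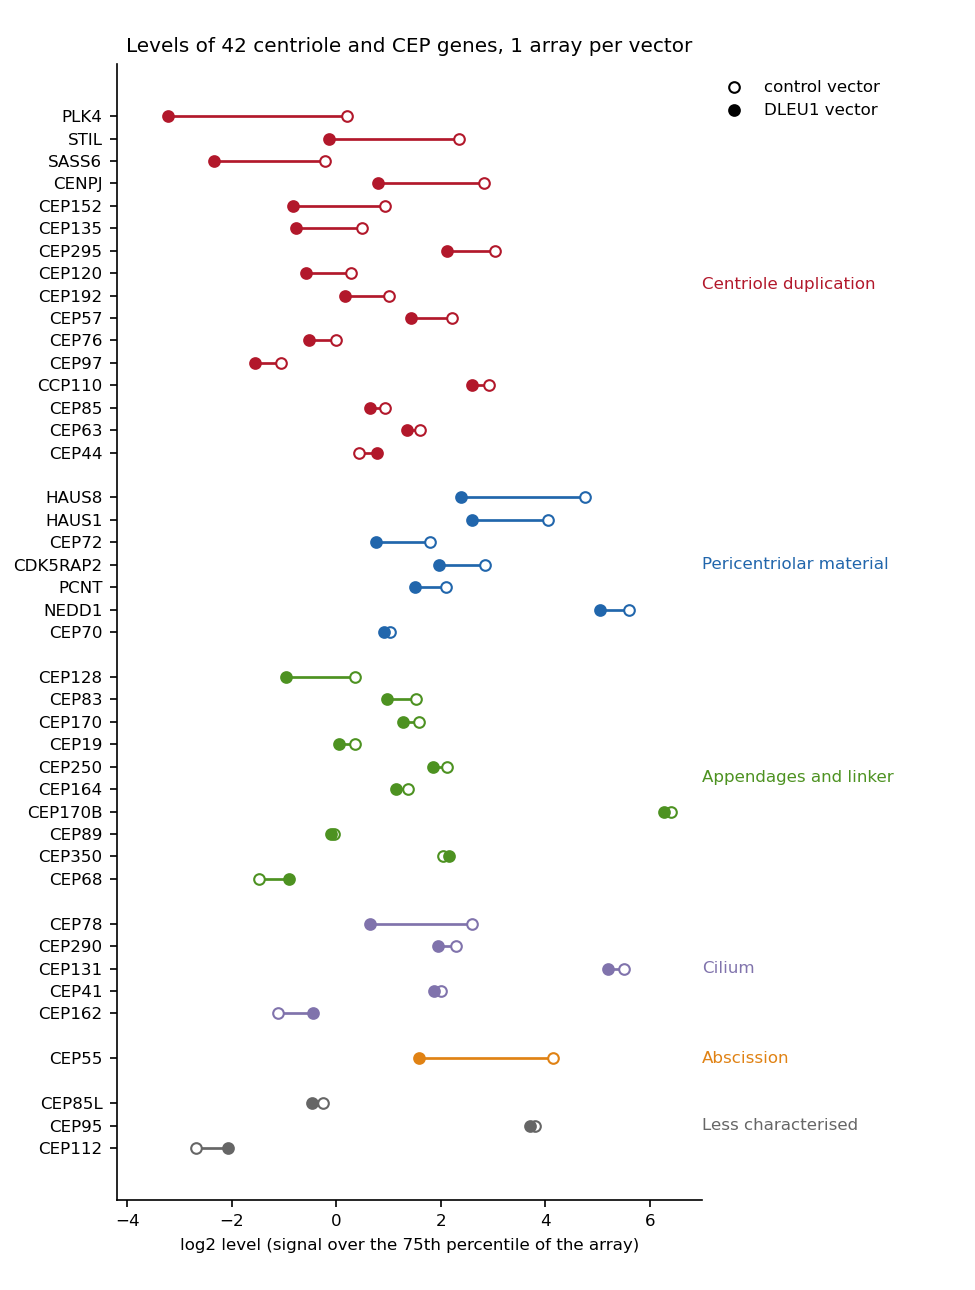
Level of 42 of the genes on each array (x axis, log2 signal relative to the 75th percentile of the array), with open circles for the control vector, filled circles for the DLEU1 vector, and colours for the roles of the proteins. In 37 rows the filled circle lies to the left (6 of the rows turned under other processing settings, all within 2-fold), and the longest line is that of PLK4, from 0.21 to -3.23.

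Genes at least 2-fold lower were found among dim and bright members alike. All gene names were split by signal into dim, middle and bright classes of equal size. The dim class held 7 centrosome genes, of which 2 were at least 2-fold lower, the middle class 26 with 7 lower, and the bright class 10 with 3 lower. Over all gene names the shares lower were 7.38%, 10.4% and 11.6% in the same order.

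**Figure D2:**
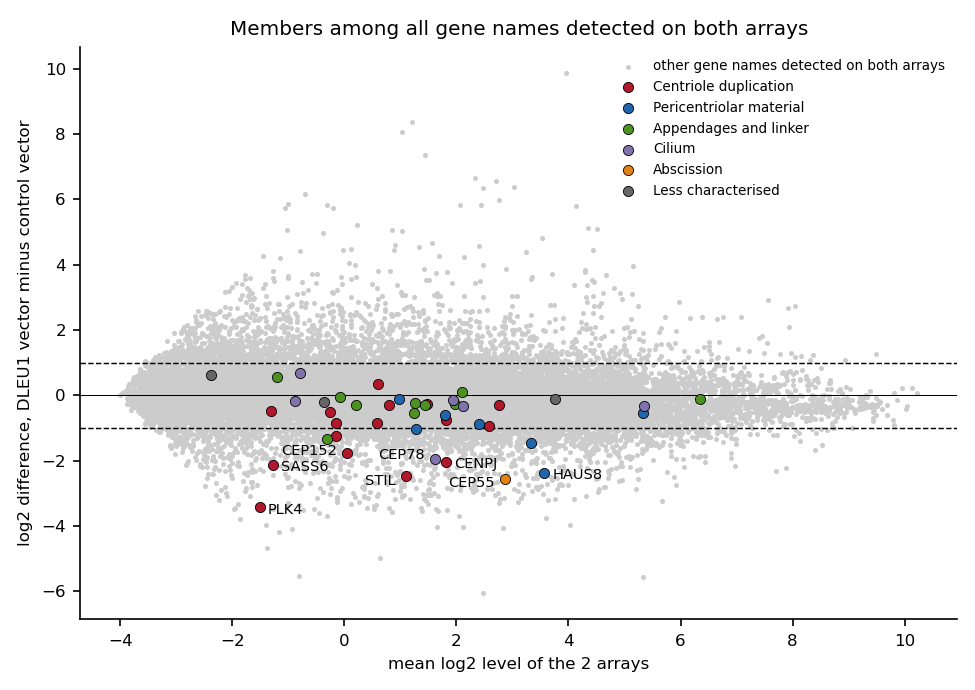
Log2 difference (y axis, DLEU1 vector minus control vector) against the mean log2 level of the arrays (x axis) for all 20246 gene names measured on both, with the 43 centrosome genes coloured by role and dashed lines at 2-fold. The 12 genes below the lower line run from CEP72 at -1.02 to PLK4 at -3.44, and none of the 43 lies above the upper line.

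Among the proteins that copy and build centrioles, the starting factors differed most, though SASS6 did not with another background correction. Of 16 such genes 15 were below 0, and the median was -0.85. At least 2-fold lower were 6 (37.5%), where 9.78% of all gene names were. The other 27 genes had a median of -0.3, with 6 at least 2-fold lower. With the spike-in probes set equal 10 of the 16 were at least 2-fold lower, where 24.1% of all gene names were. The gap between roles was not tested.

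PLK4, the kinase that starts centriole duplication, had a level of 0.21 with the empty vector. It was at -3.23 with DLEU1, a difference of -3.44 or 10.8-fold. Its probe matches chr4:128816182-128816241 of hg19 on the plus strand, and its signal was 279 and 25.1. Only 0.153% of all gene names were lower than this. The lowest level well above background on the DLEU1 vector array was -4.04, and with normexp background correction in place of the deposited one the difference was -1.99. STIL, which PLK4 phosphorylates and which recruits SASS6, was at 2.35 and -0.13, 5.59-fold lower with the DLEU1 vector. Its other probe, at -0.65 and -3.36, gave -2.71 beside the -2.48 of the brightest. SASS6, the protein of the cartwheel, was at -0.21 and -2.34, 4.37-fold lower. The SASS6 probes differed from each other by 0.08 only, although the value was smaller (-1.24) after normexp. CENPJ, which adds tubulin to the growing centriole wall, was at 2.83 and 0.8, 4.09-fold lower. The brightest probes of STIL (chr1:47726126-47726185), SASS6 (chr1:100549857-100549916) and CENPJ (chr13:25457406-25457465) all lie on the minus strand of hg19. These 4 genes span the steps from kinase to wall, and each probe that was above background for them was more than 2-fold lower on the DLEU1 vector array.

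To place these genes and those at the other end of the list in their genomic context, the 250 bases before the start of the transcript were read from RefSeq (GRCh38.p14) for PLK4 (chr4:127880643-127880892, plus strand), STIL (chr1:47314148-47314397, minus strand), SASS6 (chr1:100132931-100133180, minus strand) and CENPJ (chr13:24922862-24923111, minus strand), the 4 duplication genes with the largest decreases, and for CEP162 (chr6:84227644-84227893, minus strand) and CEP112 (chr17:65826452-65826701, minus strand), the pair with the highest differences. They are written 5′ to 3′ on the strand of the gene, with capitals for matches to the motifs described below.
PLK4: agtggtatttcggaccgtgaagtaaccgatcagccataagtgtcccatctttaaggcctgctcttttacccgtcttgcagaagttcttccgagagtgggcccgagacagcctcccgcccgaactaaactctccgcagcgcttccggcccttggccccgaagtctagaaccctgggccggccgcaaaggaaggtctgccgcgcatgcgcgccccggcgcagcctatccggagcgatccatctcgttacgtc
STIL: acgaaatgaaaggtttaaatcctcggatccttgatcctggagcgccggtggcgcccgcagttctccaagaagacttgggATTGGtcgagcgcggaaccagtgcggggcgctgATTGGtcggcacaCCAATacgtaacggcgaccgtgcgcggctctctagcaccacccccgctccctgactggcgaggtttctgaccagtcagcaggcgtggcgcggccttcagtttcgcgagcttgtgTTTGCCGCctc
SASS6: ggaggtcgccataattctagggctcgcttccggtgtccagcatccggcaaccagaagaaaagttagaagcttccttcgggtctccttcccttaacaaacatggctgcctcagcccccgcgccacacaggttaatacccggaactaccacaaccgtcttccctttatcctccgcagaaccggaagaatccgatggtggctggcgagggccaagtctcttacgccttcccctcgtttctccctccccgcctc
CENPJ: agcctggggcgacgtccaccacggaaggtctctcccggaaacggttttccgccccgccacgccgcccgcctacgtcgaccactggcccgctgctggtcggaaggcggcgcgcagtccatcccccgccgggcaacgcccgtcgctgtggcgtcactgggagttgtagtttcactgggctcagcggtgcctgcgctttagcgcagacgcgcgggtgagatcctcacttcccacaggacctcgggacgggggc
CEP162: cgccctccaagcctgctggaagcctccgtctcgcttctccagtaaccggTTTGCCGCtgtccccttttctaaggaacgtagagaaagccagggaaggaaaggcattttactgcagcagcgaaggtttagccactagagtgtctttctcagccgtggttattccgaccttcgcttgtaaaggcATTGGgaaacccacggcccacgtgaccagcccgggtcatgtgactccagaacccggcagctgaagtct
CEP112: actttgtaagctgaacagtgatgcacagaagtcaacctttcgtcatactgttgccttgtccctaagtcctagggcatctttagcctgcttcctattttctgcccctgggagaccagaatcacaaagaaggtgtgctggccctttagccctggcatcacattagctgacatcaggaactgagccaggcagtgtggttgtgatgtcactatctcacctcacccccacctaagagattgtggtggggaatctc

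Letters of 3 elements known from cell cycle promoters were searched on both strands: the E2F element as TTTCCCGC, TTTCGCGC, TTTGCCGC or TTTGGCGC, the cell cycle homology region (CHR) as TTTGAA or TTCGAA, and the CCAAT box. Among the printed promoters STIL held an E2F match (TTTGCCGC) that begins 11 bases before the start, and CCAAT matches that begin 125 bases before it on the forward strand and 138 and 171 bases before it on the reverse strand. CEP162, the gene with the highest difference, also held an E2F match (TTTGCCGC), 201 bases before the start, and a reverse CCAAT match at 68 bases. PLK4, SASS6, CENPJ and CEP112 held none of these letters in the window. Of the 43 genes 39 had a promoter entry, and no 2 motifs overlapped in them. An E2F match was present in 5 of the 39 (12.8%), where 2.79% of 35116 promoters hold one. A CHR match was present in 8 (20.5%, against 14.3%) and a CCAAT match in 17 (43.6%, against 32.0%). The 35116 promoters are all entries, whether or not the gene was measured on these arrays. The genes with an E2F match were STIL, CEP57, CEP63, CEP68 and CEP162, whose differences ranged from -2.48 to 0.67. Of the 11 genes at least 2-fold lower that had an entry, 1 held E2F letters, 3 held CHR letters (CEP55, HAUS8 and CEP152) and 3 held CCAAT letters (STIL, CEP55 and CEP152). The other 28 held them in 4, 5 and 14 cases. Matches were found on both sides of the 2-fold line, and 19 of the 39 genes held none. In the 4 lists of related genes described below, 0% to 8.33% of the promoters held E2F letters. The mitotic centrosome list, with 12 promoters, held CHR letters in 50% and CCAAT letters in 83.3%. The other lists held CHR letters in 6.67% to 8.33% and CCAAT letters in 41.7% to 46.7%. Whether these elements had a part in the differences was not tested.

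The scaffold that receives PLK4 was lower by less, except that after normexp CEP152 (-1.42) was lower than SASS6 (-1.24). CEP152, which recruits PLK4 and CENPJ, was at 0.94 and -0.84, which is 3.42-fold lower on the DLEU1 vector array. CEP192, its partner in PLK4 recruitment, was at 1.01 and 0.16, a difference of -0.85. CEP57 and CEP63, which form a ring with CEP152 around the centriole, differed by -0.77 and -0.25. Of these 4 scaffold genes only CEP152 passed 2-fold, apart from the setting with the spike-in probes made equal, where CEP192 and CEP57 did too.

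Genes for the later steps spread from 2-fold lower to slightly higher. CEP135, which ties the cartwheel to the wall, was at 0.48 and -0.77, a difference of -1.26 that was smaller than 2-fold (-0.93) after normexp. CEP295, needed for the new centriole to become a centrosome, was at 3.04 and 2.11, a difference of -0.93. CEP120, which acts with CENPJ in elongation, was at 0.27 and -0.58, a difference of -0.85. The proteins that cap or restrain centrioles differed less: CCP110, the distal cap, was at 2.91 and 2.6 (-0.31), its partner CEP97 was at -1.07 and -1.55 (-0.49), and CEP76, which limits reduplication, was at 0.00 and -0.52 (-0.52). CEP85, which binds STIL, differed by -0.29. CEP44, which acts inside the new centriole, was the exception in sign at 0.43 and 0.78 (0.35). A dimmer CEP44 probe for another transcript was at -2.57 and -3.64, a difference of -1.07, so the direction for this gene depended on the probe.

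The genes placed in the pericentriolar material group were all below 0. Of 7 genes 3 were at least 2-fold lower, where 9.78% of all gene names were, and the median was -0.88. With the spike-in probes set equal 6 were, where 24.1% of all gene names were. Of the 3 genes, HAUS8 and HAUS1 are augmin subunits placed in this group, and the other was CEP72. HAUS8, a subunit of the augmin complex that branches spindle microtubules, was at 4.76 and 2.38, which is 5.21-fold lower with DLEU1, and its other probe (1.05 and -1.44) gave -2.49. The brightest HAUS8 probe matches chr19:17160650-17160709 of hg19 on the minus strand. HAUS1, another augmin subunit, was at 4.06 and 2.6, 2.75-fold lower. CEP72, a satellite protein that helps to recruit the material, was at 1.79 and 0.77, a difference of -1.02 that lay within 2-fold under 4 of the other processing settings (lowest in size at -0.91). The large scaffold proteins were lower by less: CDK5RAP2, which activates the gamma-tubulin ring, differed by -0.88 (-0.71 on its other probe) and PCNT, pericentrin, by -0.59. NEDD1, which attaches the gamma-tubulin ring, was at 5.6 and 5.05, a difference of -0.55. CEP70, a factor in microtubule organisation, differed least, at 1.02 and 0.91 (-0.11), and its sign changed with the processing.

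**Figure D3:**
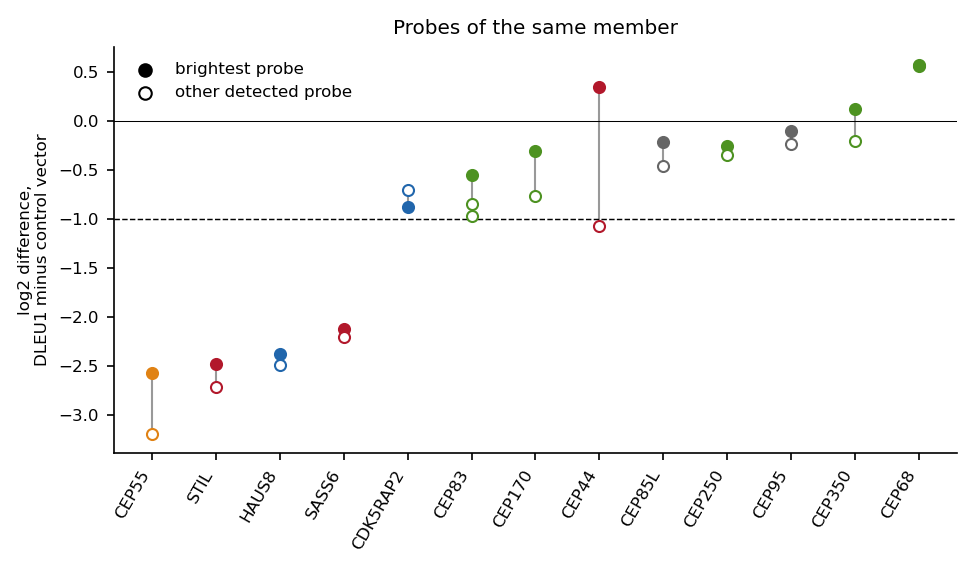
Log2 difference (y axis, DLEU1 vector minus control vector) for 13 genes with more than 1 probe above background on both arrays, with filled circles for the brightest probe, open circles for the others, colours for the roles and a dashed line at 2-fold. The probes went the same way for 11 of the 13, and CEP44 has the widest gap at 1.42.

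Genes of the appendages and of the linker were close to the rest of the array, apart from CEP128. Of 10 genes 8 were below 0, and the median was -0.24. At least 2-fold lower was 1 (10%), where 9.78% of all gene names were. CEP128, a subdistal appendage protein, was at 0.36 and -0.97, a difference of -1.33 that became -0.96 after normexp. Its second probe was above background with the empty vector only. The distal appendage proteins CEP83, CEP164 and CEP89 differed by -0.55, -0.23 and -0.06. CEP83, which assembles first on the centriole end, was lower on each of its 3 probes, and the dimmer ones gave -0.85 and -0.97. CEP170 and its paralogue CEP170B differed by -0.31 and -0.12 (levels of 6.40 and 6.28 for CEP170B). CEP19, needed to form a cilium, differed by -0.3. Of the linker proteins, CEP250, from which the linker fibres extend, differed by -0.26, and CEP68 was higher with the DLEU1 vector at -1.48 and -0.91 (0.56 on each of its probes). CEP350, which anchors microtubules at the centriole, was at 2.04 and 2.15 (0.12), with -0.21 on its other probe. The signs of CEP350, CEP89 and CEP170B changed with the processing.

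The cilium genes likewise held 1 large decrease. Of 6 genes 5 were below 0, 1 was at least 2-fold lower (9.78% of all gene names were) and the median was -0.24. CEP78, a distal centriole protein that is mutated in a retinal and hearing disorder, was at 2.6 and 0.64, so 3.87-fold lower with DLEU1 (probe at chr9:80881548-80881607, hg19, plus strand). CEP290 of the transition zone and CEP131 of the satellites differed by -0.34 and -0.32. CEP41, a tubulin modification factor, differed by -0.14. CEP162, which joins the transition zone to the axoneme, was at -1.12 and -0.46, the highest difference of all 43 genes at 0.67 or 1.59-fold.

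CEP55 is named for the centrosome, but acts at the midbody, where it recruits the machinery that cuts the last bridge between daughter cells. Its level was 4.15 with the control and 1.58 with DLEU1, which is 5.94-fold lower. The probe matches chr10:95288754-95288813 of hg19 on the plus strand. A dimmer one, at 1.22 and -1.98, gave -3.2 beside the -2.57 of the brightest. Only PLK4 had a larger decrease among the 43 genes, though not after normexp. There CEP55 (-2.45), HAUS8 (-2.37) and STIL (-2.14) were all lower than PLK4 (-1.99). Of the less characterised genes CEP95 and CEP85L differed by -0.11 and -0.21, and CEP112 was at -2.68 and -2.07 (0.61), in the range of levels where replicated spots scattered most.

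**Figure D4:**
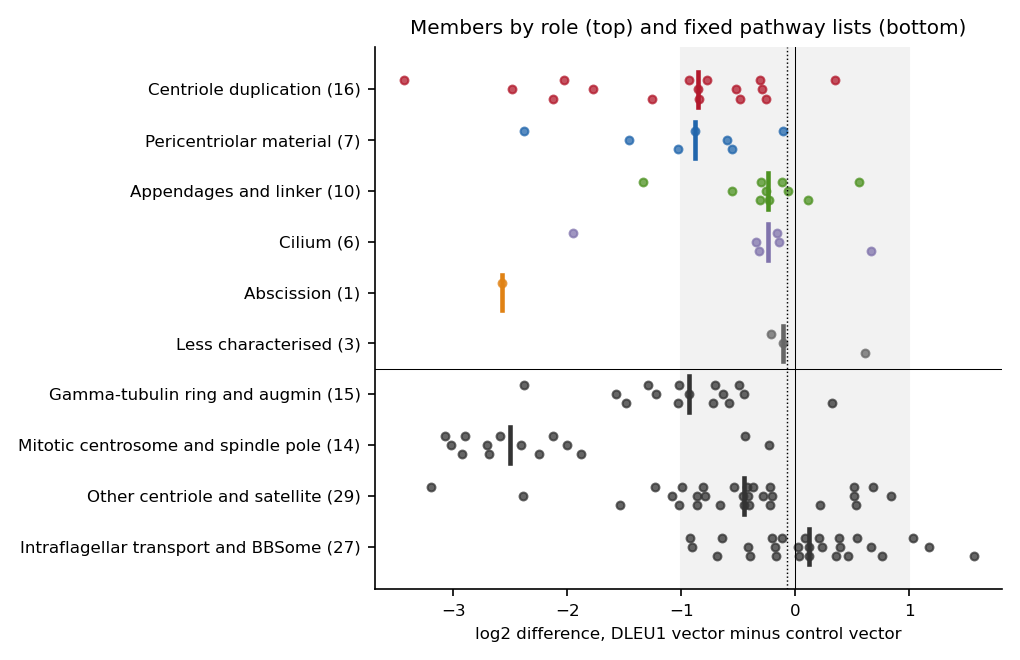
Log2 difference (x axis, DLEU1 vector minus control vector) of each gene measured on both arrays, by role for the 43 genes (upper rows) and for 4 lists of related genes (lower rows), with the number of genes in brackets, a thick bar at the median of each row, grey between 2-fold lower and 2-fold higher, and a dotted line at the median of all gene names (-0.07). CEP55 alone makes up the abscission row at -2.57, the mitotic centrosome row is the lowest of the lists of related genes with a median of -2.5, and the intraflagellar transport row furthest to the right with 0.12, which was -0.34 when the spike-in probes were set equal.

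Genes that act with these proteins were read from 4 further lists. In the list of gamma-tubulin ring and augmin genes 7 of the 15 measured were at least 2-fold lower and 0 were higher. Of all gene names 9.78% were lower and 9.18% higher. The median of the list was -0.93. HAUS7 had levels of 2.37 and -0.01 (a difference of -2.38). TUBG1, gamma-tubulin itself, was at 6.4 and 4.83 (-1.57), and HAUS5 was at 4.09 and 2.61 (-1.48). Of the 7, only TUBGCP2 (-1.22) had its probe in the damaged strip. TUBGCP6, a ring subunit, was highest at 0.32. With HAUS1 and HAUS8 the list completes the augmin complex, and all 8 subunits were below 0, of which HAUS1, HAUS5, HAUS6 (-1.29), HAUS7 and HAUS8 were at least 2-fold lower. No subunit was above 0 under any of the other settings, where the highest was -0.32. The remaining subunits HAUS2, HAUS3 and HAUS4 differed by -0.7, -0.64 and -0.45, and the dimmer HAUS2 probe, at -1.66, was more than 2-fold lower. With the spike-in probes set equal 12 of the 15 were at least 2-fold lower, where 24.1% of all gene names were. The count was 5 with loess and with the detected-probe percentile, where 8.16% and 7.78% of all gene names were lower.

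The kinases and spindle pole proteins that act on the centrosome in mitosis were lower than the centrosome genes themselves. In this list 12 of 14 genes were at least 2-fold lower and 0 were higher, where 9.78% and 9.18% of all gene names were. The median was -2.5. TACC3, a microtubule-stabilising protein of the spindle, differed by -3.07, AURKA, the kinase that matures centrosomes, by -3.02, and SPAG5, which recruits CDK5RAP2, by -2.93. The exceptions were NUMA1 (-0.23), a structural protein that is also present in interphase nuclei, and CKAP5 (-0.44), a microtubule polymerase.

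Other centriole and satellite proteins resembled the 43 genes in their median. Of 29 measured, 6 were at least 2-fold lower and 0 were higher, where 9.78% and 9.18% of all gene names were. Below 0 were 23, and the median was -0.45. With the spike-in probes set equal 13 were at least 2-fold lower (24.1% of all gene names were) and the median was -0.92. The count was 4 with loess and with the detected-probe percentile, where 8.16% and 7.78% of all gene names were lower. TEDC2 and TEDC1, partners in a complex with delta- and epsilon-tubulin, differed by -3.19 and -1.53, and POC1A, which stabilises the centriole wall, by -2.39. The highest was NINL at 0.84. SPICE1 was above background with the DLEU1 vector only.

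Intraflagellar transport and BBSome genes are known mainly for their work in the cilium. Their median was above 0, except with the spike-in probes set equal (-0.34). Of 27 measured, 0 were at least 2-fold lower and 3 were higher, where 9.78% and 9.18% of all gene names were. The median was 0.12, and 17 were above 0, where 9278 of all 20246 gene names were. The higher genes were IFT140 (1.57), WDR19 (1.18) and BBS1 (1.03), the first pair being subunits of the transport complex for return from the tip. Other subunits of that complex went both ways: TTC21B (-0.68), WDR35 (-0.4), IFT43 (0.03) and IFT122 (0.12). IFT46 (-0.91) was also among the genes below 0. With the spike-in probes set equal 4 genes were at least 2-fold lower and 1 higher, where 24.1% and 4.56% of all gene names were. With median scaling 2 were lower, where 12.1% of all gene names were. That scaling moves every gene by the same amount, so it leaves the order of the lists as it was.

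**Figure D5:**
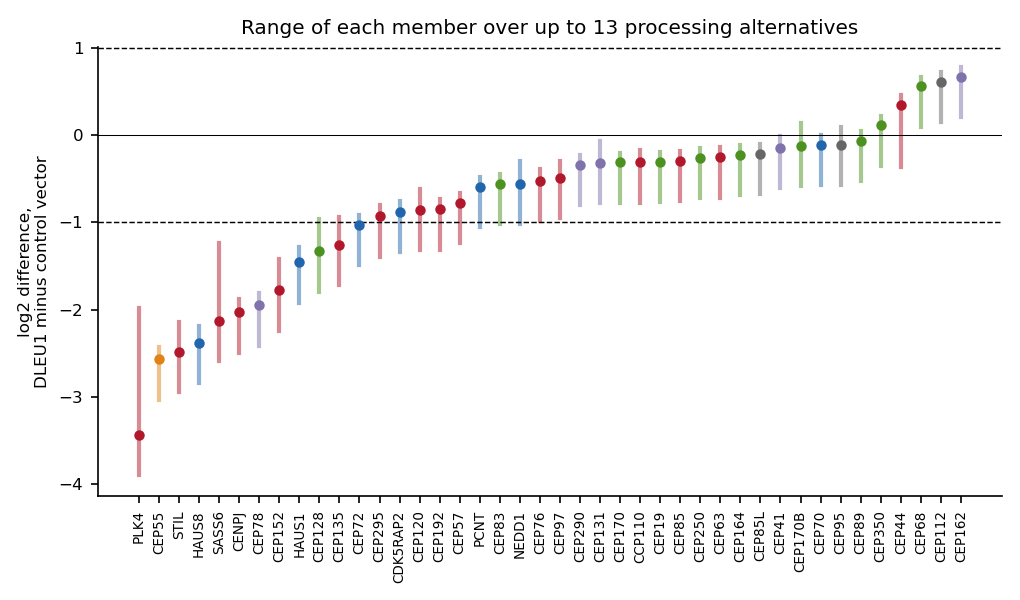
Main log2 difference (points, DLEU1 vector minus control vector) of 42 of the genes and its range over 13 other processing settings, or 12 for PLK4, SASS6, CEP97, CEP68 and CEP112 (bars), coloured by role, with dashed lines at 2-fold. The bar of PLK4 reaches from -3.9 to -1.99, and CEP72, CEP128 and CEP135 are the called genes whose bars cross the lower dashed line.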

How the data were processed

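RNA of Ca9-22 cells was measured on 1 one-colour Agilent array per vector, with Feature Extraction 10.7 per the submitters' processing notes. The deposited intensity values had, per the file headers, the local background subtracted and a surrogate value given to dim spots. GeneSpring was the software the authors used for these arrays, and their deposited series values hold the same intensity on a linear scale, which served as an alternative. Probe positions were deposited on hg19, and since no hg19 annotation was used, exons and untranslated regions are not given. The number of arrays limits the precision.

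From the deposited signal, control spots and spots marked as outliers (84 and 103) were left out, 0 were saturated, log2 was taken and averaged over the spots of each probe, and each array was centred on its own 75th percentile of non-control probes (7.92 and 7.88, control first). A probe was above background where the scanner software marked most of its spots so. Counts used 2-fold. Other settings were median, detected-probe percentile, quantile, loess (span 0.3), spike-in and no scaling, normexp (offset 50), a signal of at least 100, no filter on dim probes, the mean of probes, the median of the 100 nearest spots taken off, the damaged strip left out, and thresholds of 1.5-fold and 3-fold. The strip was located from a map of spot positions. Python 3.11.15, pandas 2.3.3, statsmodels 0.14.6, R 4.3.3 and limma 3.58.1 were used, and scripts were tested on simulated data.

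The genes, roles and related lists were chosen with earlier results of these data known. Named were every duplication gene, in other roles those changed 2-fold and the extremes, in related lists the 3 largest decreases, the highest and those 2-fold higher, and those of the 43 genes whose probes disagreed. Others were named, after their values were seen, to account for the genes chosen and for each augmin subunit. The same holds for WDR35, IFT43, IFT122, CKAP5, SPICE1 and for the values of the markers KRT14, EPCAM, COL1A1, PDGFRB, CD14, CD79A, VWF and CDH5. The array names TEDC1 and TEDC2 by older symbols, and CENPJ was matched to its promoter through a synonym. Where a gene has no promoter entry it was left out of the motif counts. A chosen gene and a gene of a related list are counted but not reported here by name.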

Additional observations from a re-analysis of the deposited data

How the results depend on the processing

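The number of genes at least 2-fold lower stayed between 9 and 13 under the other scalings and filters (10 of the 38 genes with a signal of at least 100), except with the spike-in probes set equal, which gave 20 (24.1% of all gene names were then lower). With normexp it was 9, where 6.98% of all gene names were lower. No gene was 2-fold higher under any of these settings. At a 1.5-fold threshold 18 genes were lower and 2 higher, where 22.0% and 18.4% of all gene names were. At 3-fold 8 were lower and 0 higher, where 3.31% and 3.82% of all gene names were. The median of -0.49 was -0.60 after median scaling, -0.37 when the percentile came from detected probes, -0.33 after quantile normalization, -0.30 after loess, -0.95 with the spike-in probes set equal and -0.35 with normexp, and minus the median of all gene names it was -0.53 to -0.30 over all settings. The median of all gene names moved by -0.11 after median scaling, by -0.46 with the spike-in probes, and by 0.11 with the detected-probe percentile or without the filter on dim probes. Of the 12 genes at least 2-fold lower, 9 stayed so under every setting that gave them a value (PLK4 and SASS6 had none with a signal of at least 100), CEP128 (-0.96) and CEP135 (-0.93) did not with normexp, and CEP72 did not under 4 settings. Signs changed for 6 genes, all within 2-fold: CEP170B, CEP350, CEP44, CEP70, CEP89 and CEP95. The median of the less characterised genes was 0.09 with loess. The cause was not tested. PLK4, SASS6, CEP97, CEP68 and CEP112 had a signal under 100 on at least 1 array, and PLK4 and SASS6 moved most with the background correction. No paired analysis was possible because each vector had 1 array, and no array could be left out.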
